A study of Mus musculus with 15 samples.

Results

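The microvilli of the intestinal brush border are built from a small set of structural proteins, and the transcripts of 10 of these, Vil1, Ezr, Cdhr2, Cdhr5, Myo1a, Myo7b, Ush1c, Eps8, Espn and Pls1, were followed across mouse intestinal organoids. The genes were given as a list of names, without a threshold on measured values but with earlier results of these data known, and all 10 were found among the 43629 genes of the count table. All 10 also passed the filter on low values in each comparison, so none was lost to low signal.

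Organoids are epithelial cultures grown from intestinal crypts, here from the proximal small intestine of mice on a mixed C57B6/129 background, and RNA of 13 cultures was assigned to 3 groups. WT comprised 5 libraries in ENR medium, which contains EGF, Noggin and the R-spondin RSPO1, of which 4 were Apc flox/flox lines numbered 1, 2, 5 and 6 and 1 was a dox-naive culture, which carries a doxycycline-inducible Cas9 and never received the drug. The Apc group held 4 libraries, from the lines of those numbers with Apc delta/delta alleles, in EN medium, which lacks RSPO1. P-Rspo3 comprised 4 libraries in EN medium, labelled 15d, 4d, M and F, that carried the Ptprk-Rspo3 fusion induced by CRISPR/Cas9. Genotype and medium therefore differed together in both comparisons with WT and cannot be told apart there, while Apc and P-Rspo3 shared a medium. Neither the P-Rspo3 cultures nor the dox-naive culture belong to the Apc flox/flox lines, and the labels do not say that libraries of a group came from separate animals, so p-values measure the spread between these libraries.

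Gene counts summed to 28902729 to 35528495 per library, and the 10 genes lie well above the counting limit in all libraries. Rspo3 had an FPKM (fragments per kilobase of transcript, scaled to the mapped fragments of the library) of 6.26 to 11.5 in P-Rspo3 and at most 0.0112 in WT. Apc was counted over the whole gene, at 11.6 to 22.3 FPKM in WT and 28.3 to 30.5 in Apc, which does not check the deletion of a part of it. Summed FPKM of 7 simple epithelial markers was 2630 to 3190 in WT, 2460 to 3030 in Apc and 2540 to 3080 in P-Rspo3, and 7 stroma and muscle markers summed to at most 0.416 in any of these libraries, with Des and Dcn at no more than 3 counts in each.

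A microvillus is a finger of membrane around a core of parallel actin filaments. Bundling proteins hold the filaments together, linker proteins and a membrane motor tie the core to the plasma membrane, and protocadherins at the tips join neighbouring microvilli into an ordered array through a complex with a scaffold and a tip-directed motor. Enterocytes assemble the array as they leave the crypt and differentiate, and the dense border it forms carries the digestive enzymes and transporters of the gut lining.

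The bases just before the transcription start are shown for 4 of the genes, since these were the most abundant actin bundler (Vil1), a membrane linker that was not called against WT (Ezr) and the adhesion protocadherins whose transcripts fell most (Cdhr2 and Cdhr5). All are RefSeq sequences on GRCm38.p6, printed 5′ to 3′ on the strand of the gene and ending before the annotated transcript. They cover chr1:74409134-74409375 for Vil1 on the plus strand, chr17:6782785-6783030 for Ezr on the minus strand, chr13:54701213-54701460 for Cdhr2 on the plus strand and chr7:141276787-141277036 for Cdhr5 on the minus strand. Capitals mark matches to the GC box GGGCGG on either strand.
Vil1: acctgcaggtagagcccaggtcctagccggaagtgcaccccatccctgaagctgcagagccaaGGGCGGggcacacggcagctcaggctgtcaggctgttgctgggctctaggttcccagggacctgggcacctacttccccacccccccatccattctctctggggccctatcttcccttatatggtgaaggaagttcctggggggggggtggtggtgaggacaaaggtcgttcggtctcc
Ezr: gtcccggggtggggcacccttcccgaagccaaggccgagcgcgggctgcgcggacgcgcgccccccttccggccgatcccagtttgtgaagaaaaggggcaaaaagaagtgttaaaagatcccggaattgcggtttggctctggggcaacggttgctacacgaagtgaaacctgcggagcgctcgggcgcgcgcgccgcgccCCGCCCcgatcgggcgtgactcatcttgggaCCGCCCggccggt
Cdhr2: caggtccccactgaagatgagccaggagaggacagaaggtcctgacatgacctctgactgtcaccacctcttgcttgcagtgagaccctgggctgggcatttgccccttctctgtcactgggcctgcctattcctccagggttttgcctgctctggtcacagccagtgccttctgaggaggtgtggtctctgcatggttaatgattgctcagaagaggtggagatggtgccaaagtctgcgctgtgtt
Cdhr5: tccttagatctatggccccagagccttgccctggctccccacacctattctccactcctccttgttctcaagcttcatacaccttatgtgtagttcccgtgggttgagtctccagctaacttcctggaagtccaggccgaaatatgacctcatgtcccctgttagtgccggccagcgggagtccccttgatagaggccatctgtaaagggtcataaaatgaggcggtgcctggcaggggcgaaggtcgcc

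Promoter windows of 300 bases, 250 before and 50 after the start, were found for 8 of the 10 genes, in 10 windows since Espn has 3. Eps8 and Myo7b had no entry. Exact matches were sought on both strands for 5 motifs, namely HNF4 (CAAAGTNCA), CDX (TTTATNG), TCF (ATCAAAG, whose CAAAG is shared with the HNF4 letters), the TATA box (TATAAA) and the GC box (GGGCGG). The GC box was present in 4 of the 8 genes (Vil1, Ezr, Ush1c and Espn), against 38.2% of all 27025 genes with a window. In Ezr it lay at -48 to -43 and at -17 to -12, and in Vil1 at -187 to -182, counted with the base before the RefSeq start as -1. The printed sequences of these genes end a few bases before that start, where the GENCODE annotation begins. A CDX match was present in 1 gene, at -197 to -191 of the third Espn window, against 12.5% of all genes. No exact match to HNF4, TCF or the TATA box was present in these windows, where 1.64%, 4.29% and 15.7% of all genes have one. Ezr had the highest GC content of the 10 windows, 68.0%, and Cdhr5 the lowest, 55.0%, against a median of 52.7% over all windows.

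In wild-type organoids all 10 genes were well expressed, between the top 2.71% (Vil1) and the top 17.7% (Espn) of the 16272 genes ranked by mean FPKM in WT. Vil1 led with 180 ± 21.4 FPKM (SD, n = 5) and its libraries did not overlap those of Ezr, the next gene, at 115 ± 18.4 (SD, n = 5). Below it the order was Ezr, Pls1, Cdhr5, Myo1a, Cdhr2, Ush1c, Eps8, Myo7b and Espn, and the ranges of neighbouring genes overlapped at each of these steps. Espn, the lowest, had 31.8 ± 8.45 FPKM (SD, n = 5). The P-Rspo3 order was similar at the top, with Vil1 at 181 ± 12.8 (SD, n = 4) and Ezr at 103 ± 8.62 (SD, n = 4), again without overlap.

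The order was different in Apc organoids. Ezr stood first at 153 ± 12.8 FPKM (SD, n = 4), followed without overlap by Vil1 at 91.9 ± 7.28 (SD, n = 4), and Eps8 was the third at 84.9 ± 4.81 (SD, n = 4), with a range that overlapped that of Vil1. Cdhr5, Cdhr2 and Espn were the last, at 15.2, 14.2 and 12.4 FPKM, with overlapping ranges. Summed over the 10 genes, FPKM was 840 ± 119 in WT (SD, n = 5), 509 ± 23.3 in Apc (SD, n = 4), and the P-Rspo3 mean was 753 ± 73.5 (SD, n = 4).

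**Figure D1:**
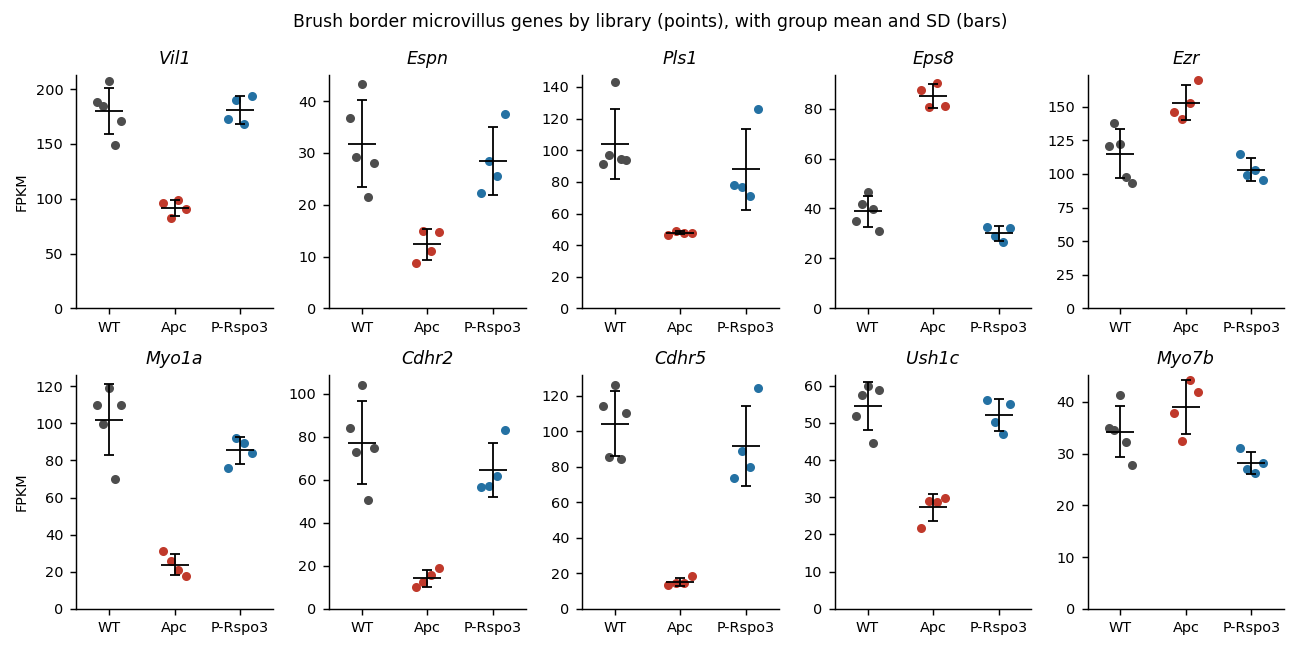
FPKM (vertical axis, from 0) of each of the 10 genes in WT (n = 5), Apc (n = 4) and P-Rspo3 (n = 4) libraries. Each point is a library, and the horizontal mark and whiskers are the group mean and SD. Cdhr2, Cdhr5 and Myo1a in Apc lie far below both other groups, and Eps8 lies above them at 80.6 to 90.4 FPKM.

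Makeup shifted with the order. Ezr and Eps8 together with Vil1 supplied most of the signal in Apc, where the mean share of the summed FPKM was 30.0% for Ezr, 18.0% for Vil1 and 16.7% for Eps8. The same genes held 13.7%, 21.5% and 4.66% in WT. Cdhr5 went from 12.4% in WT to 2.97% in Apc and Cdhr2 from 9.07% to 2.77%. In P-Rspo3 these genes held 12.0% and 8.54%. Shares add up to a fixed total, so a rise in one gene lowers the share of the others.

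**Figure D2:**
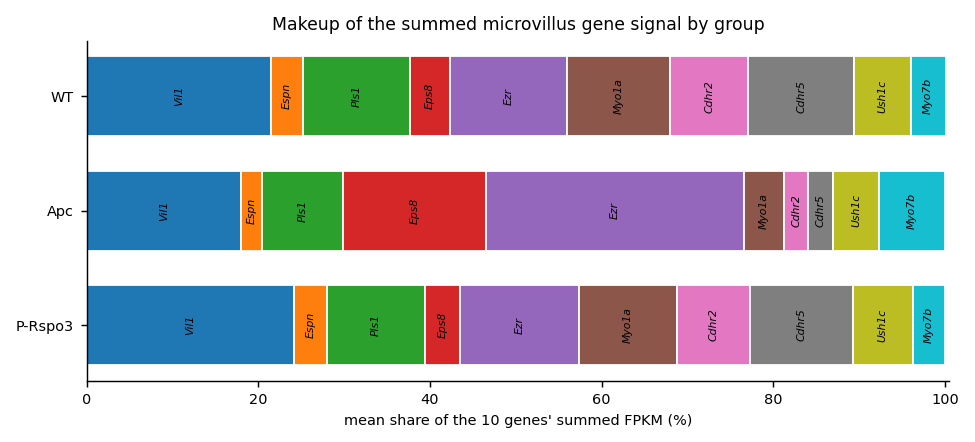
Mean share of each gene in the summed FPKM of the 10 genes (horizontal axis, percent), with 1 bar for each group. The Ezr segment is 30.0% and the Eps8 segment 16.7% in Apc, against 13.7% and 4.66% in WT.

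Each pair of groups was compared across all genes by the quasi-likelihood test of edgeR, run on counts, and a gene was called when its Benjamini-Hochberg adjusted p was under 0.05 with a log2 fold change above 1 or below -1. Between Apc and WT, 7 of the 10 genes were called lower (Vil1, Espn, Pls1, Myo1a, Cdhr2, Cdhr5 and Ush1c) and 0 higher, where 14.1% of the 16749 genes tested were called lower and 12.2% higher. Eps8 passed the adjusted p alone in the upward direction, which 30.0% of all genes did. The median log2 fold change of the 10 genes was -1.33, and that of all genes tested was 0.00. With limma on log2(FPKM + 1), a scale that moved the median of all genes by 0.17, 5 genes were called lower and 1 higher, since Vil1 (-0.96) and Ush1c (-0.98) fell just short of the fold threshold and Eps8 passed it. In these bulk cultures fewer cells of a type and less RNA per cell cannot be told apart.

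Actin bundlers come first. Vil1 encodes villin, which bundles and severs actin filaments and is a classical marker of the intestinal epithelium (chr1:74409376-74435559, GRCm38, plus strand). With WT and Apc libraries in the order of lines 1, 2, 5 and 6, then dox-naive for WT, and P-Rspo3 libraries in the order 15d, 4d, M and F, as in all such sentences that follow, its FPKM was 188, 185, 207, 149 and 171 in WT, 95.8, 82.3, 99.0 and 90.5 in Apc and 173, 190, 168 and 194 in P-Rspo3. Each Apc library lay below all WT and P-Rspo3 libraries. The log2 fold change against WT was -1.26 (SE 0.12, edgeR adjusted p = 8.7e-06), a 2.39-fold lower level. The last bases of Vil1 overlap exons of Usp37 on the other strand, which had at most 2586 counts in any library, and whether counting used strand is not given in the sources used here.

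Espn (chr4:152120331-152152371, minus strand) encodes espin, an actin cross-linker of the core bundle. Espn FPKM was 36.8, 29.2, 43.4, 21.5 and 28.1 in the WT libraries, 8.79, 15, 11.1 and 14.7 in those of Apc and 22.3, 28.5, 25.6 and 37.6 in those of P-Rspo3. Apc libraries were the lowest, at 8.79 to 15, and the WT and P-Rspo3 ranges overlapped widely. The log2 fold change of Apc against WT was -1.45 (SE 0.23, edgeR adjusted p = 2.9e-04).

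Pls1 (chr9:95752642-95845311, minus strand) encodes plastin 1, also called fimbrin, another bundler of the core. FPKM values of Pls1 were 91.0, 97.2, 143, 94.2 and 93.8 in WT, 46.7, 49.2, 47.8 and 47.9 in Apc and 77.7, 76.8, 71.2 and 126 in P-Rspo3. The 4 Apc values lay between 46.7 and 49.2, while WT line 5 and P-Rspo3 library F stood above the rest of their groups. Pls1 fell by 1.36 on the log2 scale in Apc against WT (SE 0.14, edgeR adjusted p = 1.2e-05).

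Eps8 (chr6:137477245-137654876, minus strand) encodes a bundling and capping protein that sits at the tips of microvilli and also takes part in receptor tyrosine kinase signalling elsewhere in the cell. In WT the FPKM of Eps8 was 35.0, 41.6, 46.6, 39.7 and 30.9, in Apc 87.6, 80.6, 90.4 and 81.2 and in P-Rspo3 32.4, 28.8, 26.4 and 32.2. Here the direction was the opposite, and every Apc library lay above all others. Eps8 rose by a log2 fold change of 0.70 on the count scale (SE 0.13, edgeR adjusted p = 8.6e-04), under the fold threshold, and by 1.12 on the log2(FPKM + 1) scale, past it (limma adjusted p = 2.3e-05), where the median of all genes moved by 0.17. The Eps8 to Vil1 ratio of FPKM was 0.217 ± 0.0346 in WT (SD, n = 5), 0.926 ± 0.0360 in Apc (SD, n = 4), and the P-Rspo3 mean was 0.166 ± 0.0159 (SD, n = 4).

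The membrane linkers diverged from each other. Ezr (chr17:6738041-6782784, minus strand) encodes ezrin, which in its active form binds membrane proteins at one end and actin at the other. Ezr FPKM was 121, 138, 122, 98.0 and 93.4 in the WT libraries, 146, 141, 153 and 170 in those of Apc and 115, 99.0, 103 and 95.7 in those of P-Rspo3. Apc FPKM values were higher than those of all WT libraries, yet TMM-normalised CPM overlapped, at 512 to 587 in Apc and 389 to 595 in WT. That measure scales counts by the library total and also by a TMM factor for the composition of the library. The factor was 1.1334 to 1.1666 in Apc and 0.9209 to 0.9615 in WT, and FPKM holds no such factor. The log2 fold change was 0.12 with a 95% confidence interval of -0.16 to 0.40 (edgeR adjusted p = 0.433). It was 0.42 on the log2(FPKM + 1) scale (limma adjusted p = 0.0120), a fit that differs in both the test and the measure, and with DESeq2 size factors in edgeR the adjusted p was 0.473. The end of Ezr overlaps exons of Sytl3 on the other strand, which had at most 105 counts in any library.

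Myo1a (chr10:127705170-127720940, plus strand) encodes the class I myosin that forms lateral bridges between the core bundle and the membrane. FPKM values of Myo1a were 110, 99.4, 119, 69.9 and 110 in WT, 30.9, 25.7, 20.7 and 17.9 in Apc and 75.8, 92.1, 89.3 and 84.2 in P-Rspo3. The highest Apc library, line 1, had 30.9 and the lowest WT library, line 6, had 69.9. The log2 fold change was -2.38 (SE 0.21, edgeR adjusted p = 3.9e-06), a 5.20-fold lower level. Relative to Ezr, Myo1a FPKM was 0.898 ± 0.191 in WT (SD, n = 5) and 0.158 ± 0.0474 in Apc (SD, n = 4).

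The tip adhesion complex held the 2 largest falls of the 10 genes, Cdhr5 and Cdhr2, beside a smaller one in Ush1c and no call in Myo7b. Cdhr2 (chr13:54701461-54736662, plus strand) and Cdhr5 (chr7:141269083-141276786, minus strand) encode the protocadherins that bind each other across neighbouring tips. In WT the FPKM of Cdhr2 was 84.2, 72.7, 104, 50.4 and 74.7, in Apc 9.91, 12.3, 15.7 and 18.9 and in P-Rspo3 56.5, 57.2, 61.7 and 83.0. Cdhr5 FPKM was 114, 85.3, 126, 84.4 and 110 in the WT libraries, 13.2, 14.4, 14.6 and 18.4 in those of Apc and 73.5, 88.9, 79.8 and 124 in those of P-Rspo3. For both genes all Apc values lay below every WT and P-Rspo3 value, while WT and P-Rspo3 overlapped. The log2 fold change was -2.73 for Cdhr2 (SE 0.25, edgeR adjusted p = 4.9e-06), a 6.62-fold lower level. That of Cdhr5 was -3.07 (SE 0.17, edgeR adjusted p = 1.5e-07), an 8.37-fold lower level. The ratio of Cdhr2 to Cdhr5 was 0.739 ± 0.105 in WT (SD, n = 5) and 0.924 ± 0.151 in Apc (SD, n = 4), with overlapping ranges.

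Ush1c (chr7:46195350-46238503, minus strand) encodes harmonin, the PDZ scaffold of this complex. FPKM values of Ush1c were 52.0, 57.5, 59.9, 44.5 and 59.0 in WT, 21.8, 28.9, 28.7 and 29.7 in Apc and 56.2, 50.2, 47.1 and 55.0 in P-Rspo3. All Apc libraries lay below the others, that of line 1 furthest. Ush1c fell by 1.29 on the log2 scale (SE 0.13, edgeR adjusted p = 7.8e-06). The fall of Cdhr5 was deeper than that of its scaffold, and the Cdhr5 to Ush1c ratio was 1.91 ± 0.272 in WT (SD, n = 5) and 0.559 ± 0.0646 in Apc (SD, n = 4), without overlap.

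Myo7b (chr18:31959234-32036961, minus strand) encodes the motor that carries the complex to the tips. In WT the FPKM of Myo7b was 35.0, 34.6, 41.3, 32.3 and 27.7, in Apc 37.8, 32.4, 44.3 and 41.8 and in P-Rspo3 31.1, 27.1, 26.2 and 28.2. The Apc range of 32.4 to 44.3 overlapped the WT range of 27.7 to 41.3. The log2 fold change was -0.09 with a 95% confidence interval of -0.37 to 0.20 (edgeR adjusted p = 0.590) and turned to 0.19 on the log2(FPKM + 1) scale. A change of the size seen in Ush1c thus lies outside the interval. The Ush1c to Myo7b ratio was 1.62 ± 0.302 in WT (SD, n = 5), 0.707 ± 0.136 in Apc (SD, n = 4), and the P-Rspo3 mean was 1.85 ± 0.0700 (SD, n = 4).

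**Figure D3:**
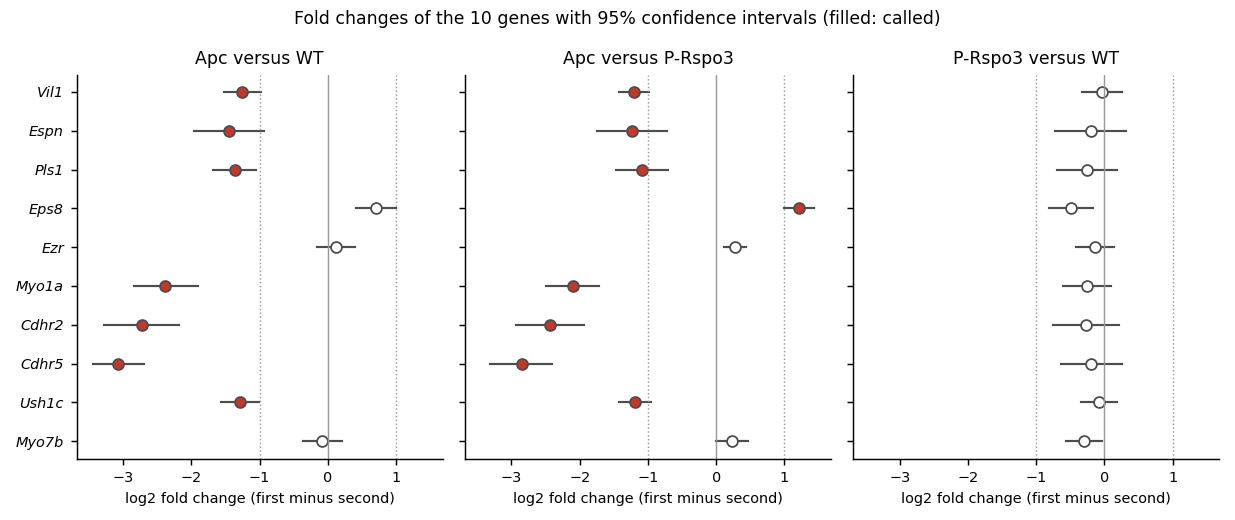
Log2 fold change (horizontal axis) of each gene in the 3 comparisons, as the first group minus the second. Circles are edgeR estimates, lines their 95% confidence intervals, filled circles genes that were called and dotted lines the fold threshold. Cdhr5 reaches -3.07 in Apc against WT, and all intervals of P-Rspo3 against WT lie within 1 of 0.

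Within the 4 flox lines, the difference between Apc and its own WT culture had the same direction in each line for the 7 called genes and for Eps8. The TMM-normalised CPM ranges of Apc and WT did not overlap for these genes, and the share of all genes without overlap was not counted. Any pairing of their libraries would therefore give the same direction, and the line values show only its size. On the log2 scale of TMM-normalised CPM it ranged from -3.47 to -2.41 for Cdhr5, from -3.29 to -1.65 for Cdhr2, from -2.88 to -2.03 for Myo1a and from 0.45 to 0.92 for Eps8. Espn was the most uneven of the called genes relative to its size, from -2.13 to -0.59. Ezr was higher in 2 lines and lower in 2, from -0.22 to 0.51, and Myo7b was lower in 3 of 4, from -0.34 to 0.13. Line 6 had the smallest fall in Vil1, Espn, Cdhr2, Cdhr5 and Ush1c.

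**Figure D4:**
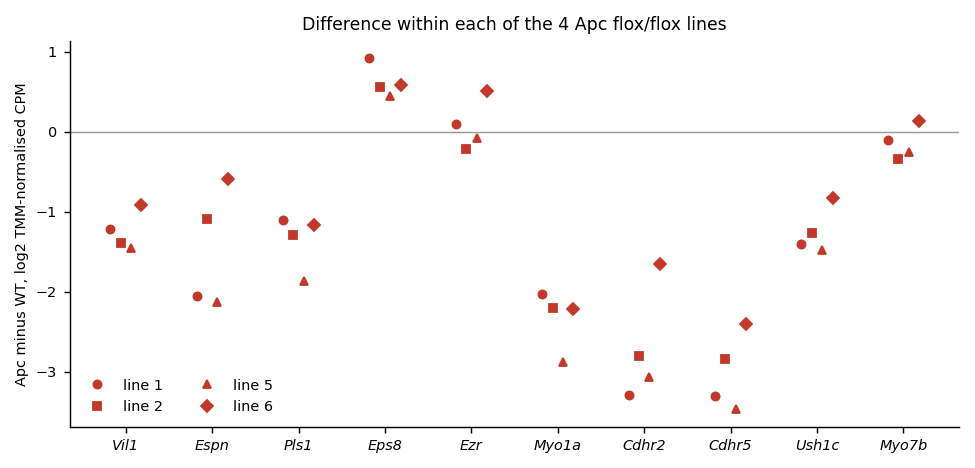
Apc minus WT difference in log2 TMM-normalised CPM (vertical axis) for each gene within Apc flox/flox lines 1, 2, 5 and 6 (symbols). Eps8 is above 0 in all 4 lines, Ezr on both sides of 0 and Cdhr5 between -3.47 and -2.41.

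The WT libraries themselves were not alike. Line 5 had the highest FPKM of the 5 WT libraries for 9 of the 10 genes, all but Ezr, and line 6 the lowest for 6. The summed FPKM of the 10 genes was 1010 in line 5 and 684 in line 6, with the other WT libraries at 798 to 868. The 9 enterocyte markers (Alpi, Sis, Lct, Anpep, Fabp1, Fabp2, Apoa1, Apoa4 and Krt20) had the same extremes in WT. Their summed FPKM was 9450 in line 5, 3240 in line 6 and 5400 to 6250 in the others. Among P-Rspo3 libraries F was highest for 5 of the 10 genes, with summed FPKM of 860 for the 10 genes and 5280 for the enterocyte markers, against 699 to 739 and 2270 to 3940 in the others. Library 15d was highest for 4 genes and lowest for 4. Below F the orders differed, with 699 and 3940 in M and 713 and 2270 in 15d. In Apc, line 6 had the highest sum of the 10 genes, 531, and the lowest enterocyte sum, 48.2.

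Enterocyte markers were lower in Apc. Their summed FPKM was 48.2 to 74.5 in Apc against 3240 to 9450 in WT and 2270 to 5280 in P-Rspo3. All 9 were called lower in Apc against WT, with a median log2 fold change of -8.82. Over all genes tested, 14.1% were called lower and 12.2% higher. The brush border peptidase gene Anpep fell least of them, by 1.21 on the log2 scale, from a mean of 44.0 FPKM in WT to 24.0 in Apc. Apoa4, an apolipoprotein of chylomicrons, had 0.0920 to 0.493 FPKM in Apc and 330 to 1590 in WT. Apoa1 went from 237 to 976 in WT to 0.247 to 0.434 in Apc, and the fatty acid binding protein gene Fabp1 from 1360 to 4730 to 0.939 to 4.02. Of 4 crypt stem cell markers, Ascl2, Lgr5 and Smoc2 were called higher, with log2 fold changes of 1.54, 1.45 and 1.21, and Olfm4 lower, at -9.78. Of 7 simple epithelial markers Krt18 was called higher, at 1.11, and 0 lower. The 4 proliferation markers (Mki67, Top2a, Pcna and Ccnb1) passed the adjusted p upward without reaching the fold threshold, where 30.0% of all genes passed it upward. The part of enterocyte, stem cell and proliferating cells in the values of the 10 genes was not tested.

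Of the stroma and muscle markers, Pdgfra was called higher in Apc against WT, with a mean FPKM of 0.211 in Apc and 0.00736 in WT. Of the immune markers, Cd68 was called higher, with a mean FPKM of 6.24 in Apc and 0.780 in WT. Lyz2 was called lower, at 0.190 in Apc and 0.492 in WT. Ptprc and Cd3e had no more than 3 counts in each Apc library. Summed FPKM of 3 endothelial markers was 0.278 to 0.365 in WT, 1.17 to 2.04 in Apc and 0.122 to 0.474 in P-Rspo3. Cdh5 was called higher, with a mean of 1.53 in Apc and 0 in WT. Pecam1 was called lower, at 0.0623 in Apc and 0.322 in WT, a log2 fold change of -2.95. Kdr had no more than 3 counts in any grouped library.

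No microvillus gene was called in organoids with the Ptprk-Rspo3 fusion. Against WT, 0 of the 10 genes were called in either direction, where 0.00625% of the 15992 genes tested were called higher and 0% lower. By the unadjusted p of the same edgeR test, Eps8 (0.00640) and Myo7b (0.0302) were under 0.05. The FPKM ranges of the groups overlapped for all 10 genes. Every estimate was below 0, from -0.49 for Eps8 to -0.04 for Vil1, with a median of -0.23, but that of Vil1 turned to 0.02 on the log2(FPKM + 1) scale.

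Eps8 came closest to a change, with FPKM of 26.4 to 32.4 in P-Rspo3 and 30.9 to 46.6 in WT. Its log2 fold change was -0.49 with a 95% confidence interval of -0.82 to -0.17 (edgeR adjusted p = 0.190). The adjusted p was 0.0472 with DESeq2 and 0.0367 in edgeR without the dox-naive library, and over all alternatives it ranged from 0.0367 to 0.454. For Vil1 the interval was -0.33 to 0.25, for Ush1c -0.34 to 0.18 and for Ezr -0.42 to 0.14. The lower ends for Cdhr2, Espn, Pls1, Cdhr5 and Myo1a were -0.75, -0.72, -0.69, -0.64 and -0.61, so falls up to these sizes are not excluded.

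Compared with P-Rspo3 in the same medium, Apc organoids had 7 of the 10 genes called lower, where 13.3% of the 16456 genes tested were, and 1 called higher, where 13.4% were. Both comparisons of Apc use the same 4 Apc libraries, so they are not independent. The called genes were Vil1 (-1.20), Espn (-1.23), Pls1 (-1.09), Myo1a (-2.10), Cdhr2 (-2.44), Cdhr5 (-2.85), Ush1c (-1.19) and, upward, Eps8 (1.22), all as log2 fold changes. Without P-Rspo3 library F the value of Pls1 was -0.88, under the fold threshold. On the log2(FPKM + 1) scale 4 genes were called lower, and Vil1 (-0.97), Ush1c (-0.92) and Pls1 (-0.82) passed the adjusted p but not the fold threshold. The median of the 10 genes was -1.20, against 0.00 over all genes tested.

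Eps8 in this comparison had an SE of 0.099 and an edgeR adjusted p of 9.1e-06, a 2.32-fold higher level in Apc. Ezr was higher by a log2 fold change of 0.28 (SE 0.071, edgeR adjusted p = 0.00831), one of 2 members that passed the adjusted p alone upward, where 28.7% of all genes did. It missed the threshold in a fit of all 3 groups together (adjusted p = 0.0604). Myo7b had a log2 fold change of 0.23 with a 95% confidence interval of 0.00 to 0.46 (edgeR adjusted p = 0.0820).

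The partners of these proteins were examined next, as a list of 13 genes. In Apc against WT 7 were called lower and 1 higher, where 14.1% and 12.2% of all genes tested were. The median log2 fold change of the list was -1.0. Anks4b, which links harmonin to Myo7b in the tip complex, went from 42.5 ± 4.32 FPKM in WT (SD, n = 5) to an Apc mean of 11.9 ± 1.02 (SD, n = 4), a log2 fold change of -2.12 (SE 0.10, edgeR adjusted p = 6.5e-08). Calml4, the light chain of Myo7b in that complex, went from 230 ± 34.5 to 155 ± 34.3 FPKM, a log2 fold change of -0.83 that passed the adjusted p but not the fold threshold. The membrane-bending I-BAR protein genes Baiap2l1 and Baiap2l2 fell by 1.11 and 1.65 on the log2 scale, and the actin nucleator gene Cobl fell by 1.0, just past the threshold.

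Among motors, Myo1d fell from 79.2 ± 8.98 FPKM in WT (SD, n = 5) to an Apc mean of 32.6 ± 3.64 (SD, n = 4), a log2 fold change of -1.57 (SE 0.12, edgeR adjusted p = 1.3e-06). Myh14, a nonmuscle myosin heavy chain, passed the adjusted p at -0.92 and Myo1e passed it upward at 0.94, both short of the fold threshold. Twf2, a twinfilin that binds actin monomers and capping protein, did likewise at 0.83. The PDZ scaffold genes of this list differed in direction. Slc9a3r1, which encodes EBP50, had -0.64 without reaching the fold threshold, Slc9a3r2 rose from 0.657 ± 0.183 FPKM in WT (SD, n = 5) to an Apc mean of 2.77 ± 0.221 (SD, n = 4), a log2 fold change of 1.79, and Pdzk1 was called lower at -1.66 (SE 0.64, edgeR adjusted p = 0.0447). Tmigd1, an adhesion molecule of the brush border, was also called lower, from low levels of 0.278 to 0.964 FPKM in WT and 0 to 0.237 in Apc. Against WT, P-Rspo3 had 0 of the 13 called, with a median of -0.05, where 0.00625% of all genes tested were called higher and 0% lower. Apc against P-Rspo3 had 5 called lower and 3 higher (Slc9a3r2, Twf2 and Myo1e), where 13.3% and 13.4% of all genes tested were.

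**Figure D5:**
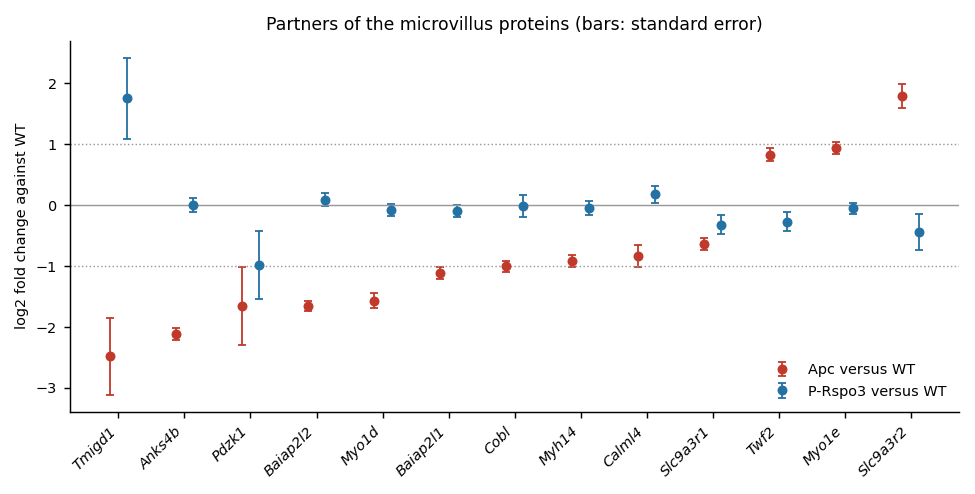
Log2 fold change against WT (vertical axis) of the 13 partner genes in Apc and in P-Rspo3, with SE as bars and the fold threshold dotted. Anks4b lies at -2.12 in Apc and 0.00 in P-Rspo3, and Slc9a3r2 at 1.79 and -0.44.

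Apical trafficking genes, which deliver membrane and proteins to the brush border or switch on ezrin, were taken as a list of their own. Of 14 listed, 13 were tested in Apc against WT (Vamp7 was not matched), with a median log2 fold change of -0.14. Of these, 0 were called lower and 1 higher, where 14.1% and 12.2% of all genes tested were. The adjusted p alone was passed downward by 6 of the 13, short of the fold threshold, and by 4864 of all 16749 genes tested. The called gene was Stk26, a kinase that phosphorylates ezrin in polarising cells, with 8.88 to 17.6 FPKM in Apc, 0.0126 to 0.171 in WT and 0 to 0.0378 in P-Rspo3. Against WT, P-Rspo3 had 0 of 12 called, where 0.00625% of all genes tested were called higher and 0% lower.

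Relatives of the 10 genes, with Myo1d and Myo1e also in the partner list, moved in both directions. Of 25 genes listed as paralogs, 20 were tested in Apc against WT, with a median log2 fold change of 0.40. Of these, 6 were called higher and 6 lower, where 12.2% and 14.1% of all genes tested were. Moesin and radixin, the other members of the ezrin family, were almost absent from WT and were called higher, Msn with 0.302 to 2.51 FPKM in Apc and at most 3 counts in any WT library, and Rdx with 0.343 to 0.834 FPKM in Apc and 0 to 0.0870 in WT. Both remained far below Ezr. Fscn1 was in the list but encodes fascin, an actin bundler of a separate protein family. Fscn1 had 2.70 to 6.88 FPKM in Apc and at most 2 counts in any WT library. Scin, a villin relative that severs actin filaments, was the largest fall, from 29.6 to 78.6 FPKM in WT to 0.00838 to 0.0724 in Apc, with 28.7 to 110 in P-Rspo3.

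Myo7a, the relative of Myo7b, fell from 12.5 ± 3.68 FPKM in WT (SD, n = 5) to an Apc mean of 1.95 ± 0.680 (SD, n = 4), a log2 fold change of -3.33 (SE 0.29, edgeR adjusted p = 3.7e-06). Cdhr1, a retinal protocadherin, was low throughout, with 0.138 to 0.349 FPKM in WT and 0.0479 to 0.0738 in Apc, and was called lower at -2.29. Pls3, named after its values were seen, rose from 3.14 ± 2.0 FPKM in WT (SD, n = 5) to an Apc mean of 45.5 ± 5.83 (SD, n = 4), a log2 fold change of 3.57 (SE 0.45, edgeR adjusted p = 4.9e-05). Its range in Apc, 37.1 to 50.4, overlapped that of Pls1, at 47.9 ± 1.01 FPKM (SD, n = 4), whereas Pls1 in WT had 104 ± 22.2 (SD, n = 5). Against WT, P-Rspo3 had 0 of 16 paralogs called, where 0.00625% of all genes tested were called higher and 0% lower. Apc against P-Rspo3 had 8 of 19 called higher and 5 lower, where 13.4% and 13.3% of all genes tested were.

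Among 14 transcription factors of enterocyte differentiation or actin genes, 6 were called lower and 2 higher in Apc against WT, with a median of -0.70. Over all genes tested, 14.1% were called lower and 12.2% higher. Creb3l3 had 58.7 to 124 FPKM in WT and 0.0683 to 0.571 in Apc. Cdx1, an intestinal homeobox factor, went from 66.3 ± 11.8 (SD, n = 5) to 4.44 ± 1.17 (SD, n = 4), a log2 fold change of -4.18 (SE 0.18, edgeR adjusted p = 3.1e-08). Hnf4g, a nuclear receptor of enterocytes, went from 92.6 ± 6.44 (SD, n = 5) to 9.38 ± 0.514 (SD, n = 4), a log2 fold change of -3.59 (SE 0.090, edgeR adjusted p = 1.5e-09). Hnf4a was called lower at -1.27, with a mean of 155 FPKM in Apc and 246 in WT. Cdx2 was not called, with 86.1 in Apc and 79.5 in WT (log2 fold change -0.17, edgeR adjusted p = 0.155). Isx was called higher, with 36.1 to 48.6 FPKM in Apc and 0.0123 to 0.765 in WT, and so was Prdm1, a transcriptional repressor, with 3.25 to 5.28 in Apc and 0.533 to 0.724 in WT. P-Rspo3 had 0 of 13 called against WT, where 0.00625% of all genes tested were called higher and 0% lower.

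The genes whose FPKM followed the mean of the 10 genes most closely over the 13 libraries were Arfgap3, H2-T23, Nr1d1, Wfs1 and Lpin3, with Pearson correlations of 0.968 to 0.964 of log2(FPKM + 1) with the mean z-score, among 10946 protein-coding genes whose mean FPKM was 1 or more. The libraries fall into an Apc group and the rest, so this is chiefly a measure of that contrast. Over the 9 WT and P-Rspo3 libraries the closest were Lpin3, Epha1, Rmdn3, Wfs1 and Nr1d1, at 0.980 to 0.962. Among the 10 genes themselves, those most like their own mean over the 13 libraries were Pls1 (0.931), Cdhr2 (0.929) and Espn (0.921), while Ezr (-0.445), Eps8 (-0.643) and Myo7b (-0.122) ran against it. Over the 9 libraries without Apc all 10 had a positive correlation, from 0.552 for Ezr to 0.937 for Cdhr2. A gene's own values enter the mean it is set against, and these are descriptions with no test.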

How the data were processed

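RNA of mouse intestinal organoids was sequenced by the authors, who checked reads with FastQC, used STAR to align them to GRCm38, obtained gene counts from HTSeq 0.6.0 and estimated FPKM with Cufflinks 2.2.1 (versions from the submitters' processing notes). They deposited whole-number counts per Ensembl gene, without normalization, and FPKM, normalized by the authors for transcript length and mapped fragments. For the counting, the annotation release and the strand setting are not given in the sources used here. Of the 43629 genes counted, 42462 were paired with a symbol from the GENCODE annotation of GRCm38, and 43437 have an FPKM.

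The main test of the counts was that of edgeR 4.0.16 in R 4.3.3 (glmQLFit and glmQLFTest with default options, after TMM scaling), in a separate fit for each pair of groups, over genes that reached an FPKM of 0.1 in a number of libraries equal to the size of the smaller group or above it. P-values were adjusted by the Benjamini-Hochberg method over all genes tested. Among the 105 pairs of libraries the smallest chi-square per gene was 20.2, so none looked like a repeated deposit. The test was checked on simulated counts. Total counts were 28902729 to 35528495 per library. Figures of at most 3 counts were read as not detectable, which covers counting error only.

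The 10 genes, the lists and the motifs were chosen with earlier results of these data known. The genes named are the 10, all partners, the 3 largest called increases and decreases of each list in Apc against WT, any gene called in P-Rspo3 and the 5 most alike over each set of libraries. Pls3 was named after its values were seen, as were Cdx2, Hnf4a and marker genes beyond that rule. The labels give Apc and WT libraries shared line numbers, which pair them. Deviations from the group mean correlated within the 4 pairs with a median of 0.11 and a range of -0.019 to 0.221, and the median of the 12 unpaired combinations was -0.039. Alternatives were DESeq2 1.42.0 and its size factors, other filters, the newer form of the test, all 3 groups in 1 fit, the 2 unassigned libraries placed by their genotype field, each library left out, the line as a replicate block, the adjusted p alone, and limma 3.58.1 on log2(FPKM + 1) and log2(FPKM + 0.1). Protein sequences were not used here. A listed marker gene is not reported here.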

Additional observations from a re-analysis of the deposited data

Results flagged for a closer look

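Of 30 groups of values (10 genes in 3 groups), 3 held a library that stood apart by Dixon's criterion at the 95% level, which chance passes in about 0.05 of groups. Ush1c was lowest in Apc line 1, with an FPKM of 21.8 against 28.7 to 29.7 in the other Apc libraries. Pls1 was highest in WT line 5, with 143 where the rest of WT had 91.0 to 97.2, and in P-Rspo3 library F, with 126 against 71.2 to 77.7 in the other P-Rspo3 libraries.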

How the results depend on the processing

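The 7 genes called lower in Apc against WT numbered 5 with limma on log2(FPKM + 1) and 6 on log2(FPKM + 0.1), and 7 under the other alternatives run. The 0 called higher became 1, Eps8, under both limma settings and under the adjusted p alone. The limma settings moved the median of all genes by 0.17 and 0.28 in this comparison. Myo7b turned to 0.19 under both and to 0.01 without WT line 5, within a range of -0.15 to 0.01 over fits that left out 1 library. In Apc against P-Rspo3 the 7 called lower became 4 under both limma settings, which left out Vil1, Ush1c and Pls1, and the 1 called higher became 2 under the adjusted p alone. In P-Rspo3 against WT the counts stayed at 0 under all alternatives run, and Vil1 turned to 0.02 under both limma settings, 0.03 without WT line 5 and 0.0042 without P-Rspo3 library 15d (-0.13 to 0.03 over fits that left out 1 library). The cause of these moves was not tested. With the line as a replicate block the number called lower was 7 and higher 0, and no call changed (Cdhr5 -3.02, Eps8 0.62). The number of P-Rspo3 libraries, 4, limits the precision of its comparisons.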

Other observations

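Another 2 libraries have titles that do not clearly match their stated genotype and entered no group. The library titled LIPO, labelled dox-naive and in ENR medium, had FPKM of 187 for Vil1, 90.1 for Ezr, 80.7 for Cdhr2, 112 for Cdhr5, 110 for Myo1a and 35.0 for Eps8. It had 0 counts of Rspo3. The library titled NAIVE_F, labelled as carrying the Ptprk-Rspo3 fusion and in EN medium, had 183 for Vil1, 113 for Ezr, 71.4 for Cdhr2, 103 for Cdhr5, 94.6 for Myo1a and 27.6 for Eps8, and an Rspo3 FPKM of 8.54. Placed by genotype, only LIPO enters Apc against WT, where the called genes stayed at 7 lower and 0 higher. Both libraries enter P-Rspo3 against WT, where 0 were called in either direction.

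FPKM divided by CPM (counts scaled to the library total, without TMM) was compared between libraries after the data were seen. It depends on transcript length as estimated by Cufflinks, on the totals used for scaling and on which reads each tool counts, and these were not told apart. For Espn it was 0.416 to 0.457 in WT, 0.432 to 0.468 in P-Rspo3 and 0.375 to 0.390 in Apc, with Apc apart from both other groups. For Vil1 it was 0.235 to 0.257 in WT and 0.237 to 0.246 in Apc. Espn has 3 promoter windows in RefSeq, and its transcript isoforms were not analysed here. The mean for Eps8 was 0.234 in WT and 0.255 in Apc, with ranges of 0.221 to 0.254 and 0.240 to 0.262 in WT and Apc that overlapped.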
